A study of Homo sapiens with 18 samples.

Results

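The 10 genes described here belong to the contractile actin apparatus. TAGLN, CALD1, TPM1, TPM2, MYL9, CNN1, CNN2, CNN3, ACTA2 and ACTN1 were followed through 18 polyA RNA-seq libraries of MDA-MB-231, an established human breast cancer line of the triple-negative type with a mesenchymal-like phenotype. They were taken from the deposited gene table by Ensembl identifier and symbol, and all 10 of the 10 names matched a row among the 62830 rows of that table. The libraries formed 6 groups of 3, which differed in the TRIM27 gene (wild type, or knockout, written KO) and in treatment. Cells of each genotype were untreated, or received the PARP inhibitor olaparib at 2 µM for 24 h, or were transfected with siRNA against PARP1 at 100 pM and harvested after 48 h (siPARP1). TRIM27 encodes a ubiquitin E3 ligase, and PARP1 encodes the enzyme that adds ADP-ribose chains to proteins at DNA breaks. All groups were labelled with 1 batch. No library was labelled as vehicle-treated or as carrying a control siRNA, so untreated cells served as the controls of both treatments, and the effects of drug and vehicle, or of PARP1 loss and transfection, cannot be told apart. The labels do not say whether the knockout line was 1 clone, nor whether libraries of 1 group were separate cultures, so the p-values below measure the spread between these libraries, which may be technical.

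Contractile force in non-muscle cells comes from myosin that pulls on actin filaments bundled into stress fibres. Tropomyosins lie along the filament and set which proteins reach it, caldesmon and the calponins bind actin and tropomyosin and restrain the myosin motor, the regulatory light chain switches the motor on when phosphorylated, transgelin binds and stabilises filaments, and alpha-actinin crosslinks them and ties them to focal adhesions. Several of these genes are classical smooth muscle genes that are also expressed by myofibroblasts and by carcinoma cells with mesenchymal features. Many are transcribed through CArG boxes, the DNA element bound by serum response factor (SRF). SRF has coactivators of the MRTF and myocardin family, of which the MRTFs respond to the pool of free actin.

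Values are FPKM, fragments per kilobase scaled to the size of the library, as the authors deposited them. For TAGLN, CALD1, TPM2, MYL9, CNN2, CNN3 and ACTA2 the gene value equalled the sum of the values of its listed transcripts. How fragments were assigned to transcripts can therefore enter the gene values. A change is a difference of log2(FPKM + 1) from a limma fit over the 6 groups, and a gene was said to rise or fall when its Benjamini-Hochberg adjusted p over 15764 tested genes was under 0.05. Adding 1 understates the change of genes at a few FPKM. FPKM carries no read number, so the depth behind each value is unknown. RNA of a whole culture was measured, so a change in the share of cells that express a gene and a change in RNA per cell cannot be told apart. TRIM27 was at 1.45 ± 0.243 FPKM (SD, n = 3) in untreated wild-type cells and at 0.623 ± 0.0663 in untreated KO cells, and the difference (−0.59 log2 units untreated, −0.55 with olaparib and −0.56 with siPARP1) passed the test in each condition. PARP1 stood at 56.2 ± 2.57 FPKM in untreated and at 10.7 ± 0.883 in siPARP1 wild-type cells, and at 55.2 ± 3.7 and 9.25 ± 0.472 in KO cells. The labels name an epithelial cell type. Vimentin (VIM) was at 1564 to 2710 FPKM over the 18 libraries, and E-cadherin (CDH1) did not exceed 0.0968 FPKM in any of them. Of 6 smooth muscle markers, only SMTN (19.3 to 33.0 FPKM) reached 1 FPKM in any library, and the 9 muscle paralogues of the 10 genes (ACTA1, ACTC1, ACTG2, ACTN2, ACTN3, TAGLN3, MYL2, MYL3 and MYL7) all stayed below it. Among 3 leukocyte and 3 endothelial markers only CD68 reached 1 FPKM, at 10.1 to 10.9 in untreated and 19.5 to 24.1 in siPARP1 wild-type cells. In KO cells its change with siPARP1, 0.19 log2 units, missed the threshold (limma adjusted p = 0.0908), and the interaction with genotype passed (−0.77, adjusted p = 0.00254). With olaparib CD68 fell by 0.83 in KO cells, and the interaction with genotype missed the threshold (−0.06, limma adjusted p = 0.88). In wild-type cells the sum of the 3 leukocyte markers was 10.1 to 10.9 FPKM untreated and 5.32 to 6.06 with olaparib. Of 4 fibroblast markers, PDGFRB and LUM reached 1 FPKM in a library and DCN did not exceed 0.0303 FPKM, and the sum of all 4 was 2.30 to 2.48 FPKM in untreated, 0.824 to 1.11 in olaparib and 1.10 to 1.27 in siPARP1 wild-type cells, and 1.31 to 2.04, 0.731 to 0.839 and 0.151 to 0.335 in KO cells. PDGFRB, the only one of them tested, fell with olaparib (−0.65 and −0.64 log2 units in wild-type and KO cells) and with siPARP1 (−1.04 and −1.01). The part of these markers in the results below was not tested. The share of Ensembl-annotated FPKM that came from mitochondrial genes was 19.0% to 22.1% in untreated libraries and 23.5% to 28.2% in treated ones, and after rescaling without those genes none of the 99 member results crossed the threshold. Loci without an Ensembl name, 970 of the rows, held 43.4% to 49.8% of all summed FPKM. In wild-type cells their share was 49.0% to 49.8% untreated, 46.0% to 47.3% with olaparib and 44.0% to 47.2% with siPARP1. In KO cells it was 47.8% to 49.3%, 44.2% to 45.9% and 43.4% to 44.6%. The part of this share in the results below was not tested.

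Start-site windows from RefSeq (GRCh38.p14, 250 bases before to 50 after a start) were found for 8 of the 10 genes, 17 windows in all, with no entry for TAGLN and MYL9. Stretches from 2 of these windows are printed because they carry the CArG-type elements of ACTA2 and CNN2. The first is the stretch before the proximal ACTA2 start (chr10:88952774-88953023, minus strand), the start of the transcript that held most of the ACTA2 signal. The second precedes CNN2 (chr19:1026358-1026580, plus strand) and is shown up to the first annotated exon base. Capitals mark matches to 3 searched motifs on either strand: the CArG box, a relaxed CArG box in which any 1 of the 6 central letters is free, and the TEAD motif CATTCC. The relaxed form was searched after the sequences had been seen.
ACTA2 proximal start: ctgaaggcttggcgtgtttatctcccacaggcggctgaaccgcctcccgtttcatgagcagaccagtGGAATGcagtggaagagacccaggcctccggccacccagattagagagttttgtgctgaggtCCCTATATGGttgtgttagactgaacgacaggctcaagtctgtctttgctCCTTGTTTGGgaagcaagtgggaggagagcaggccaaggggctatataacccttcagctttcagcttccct
CNN2: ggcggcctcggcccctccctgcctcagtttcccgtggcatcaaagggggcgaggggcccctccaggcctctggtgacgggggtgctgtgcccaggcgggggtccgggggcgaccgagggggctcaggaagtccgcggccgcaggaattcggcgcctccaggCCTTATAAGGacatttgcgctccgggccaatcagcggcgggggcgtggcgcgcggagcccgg
In the ACTA2 stretch the capitals are, from left to right, the TEAD motif on the opposite strand (183 bases before the start), the relaxed CArG match CCCTATATGG (121 bases before it) and the relaxed CArG match CCTTGTTTGG (71 bases before it). In the CNN2 stretch they are the strict CArG box CCTTATAAGG, 89 bases before the start. ACTN1 had the only other strict match, CCAAAAATGG, in 1 of its windows. Over all 35116 windows of this length, 1.29% held a strict CArG box, 8.13% a relaxed one and 14.0% the TEAD motif, against 2, 4 and 5 of the 17 windows here. A match describes letters only and was not tied to binding.

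ACTA2 encodes smooth muscle alpha-actin, the actin isoform of contractile stress fibres, and it was the gene of the set with the largest response to olaparib. It stood at 22.0, 19.8 and 18.6 FPKM in the 3 untreated wild-type libraries and at 112.1, 117 and 111 in the olaparib libraries. In KO cells it stood at 19.8, 21.1 and 18.2 FPKM untreated and at 104, 108 and 101 with olaparib. All 6 olaparib libraries lay far above all 12 others, and the wild-type olaparib libraries did not overlap the KO ones. The rise was 2.44 ± 0.06 log2 units (SE) in wild-type cells (limma adjusted p = 5.84e-13) and 2.35 ± 0.06 in KO cells (adjusted p = 7.01e-13), which placed ACTA2 at rank 37 and rank 32 among all rises. The difference between the genotypes in that response, −0.09 ± 0.09, missed the threshold (adjusted p = 0.681). siPARP1 did not raise ACTA2. The wild-type siPARP1 libraries were at 16.5, 17.0 and 16.9 FPKM, below every untreated one, a change of −0.25 log2 units (adjusted p = 0.00331), and the KO siPARP1 libraries, at 20.2, 19.2 and 20.1, overlapped the untreated KO libraries (change 0.01, adjusted p = 0.88). Between olaparib and siPARP1, ACTA2 differed by 2.68 log2 units in wild-type and 2.34 in KO cells.

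The locus was examined transcript by transcript, since ACTA2 (GRCh38, chr10, 88935074 to 88991339, minus strand) overlaps FAS, STAMBPL1 and the antisense gene ACTA2-AS1 on the other strand and the strand setting of the counting was not given in the sources used here. ACTA2-201, which begins at the proximal start at 88952773, held 60.6% to 78.2% of the listed ACTA2 signal. It was at 14.2 to 15.0 FPKM in untreated and 75.6 to 79.2 in olaparib wild-type libraries, and at 11.5 to 14.4 and 71.6 to 75.3 in KO libraries. The 2 transcripts from the distal start region, ACTA2-202 and ACTA2-203, rose as well. ACTA2-202 went from 1.75 to 3.03 FPKM in untreated wild-type cells to 17.0 to 18.4 with olaparib, and ACTA2-203 from 1.73 to 3.63 to 14.6 to 21.4. In wild-type cells the 3 transcripts rose by 2.33, 2.45 and 2.30 log2 units for ACTA2-201, ACTA2-202 and ACTA2-203, and in KO cells by 2.44, 2.40 and 1.57, each with a limma adjusted p under 0.05 over 44746 transcripts tested, of which 11.4% were called in wild-type and 12.6% in KO cells. FAS, the death receptor gene whose 5′ end overlaps the distal start region, was at 7.81 to 12.1 FPKM over all 18 libraries and changed by 0.02 and 0.08 log2 units with olaparib, neither past the threshold. STAMBPL1, a deubiquitinase gene, was at 7.01 to 10.3 FPKM, and its only call with olaparib was a rise of 0.18 in KO cells. ACTA2-AS1 did not exceed 0.324 FPKM.

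**Figure D1:**
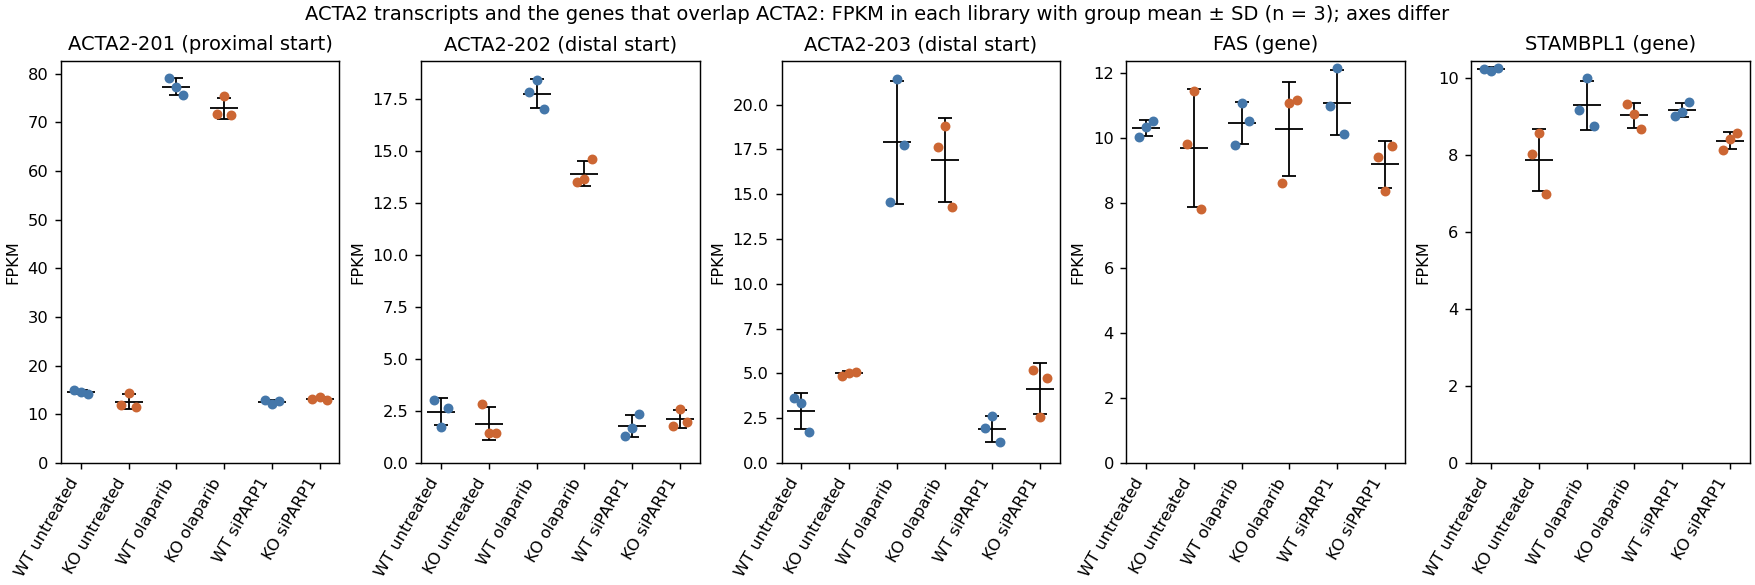
FPKM of the 3 ACTA2 transcripts and of FAS and STAMBPL1, which overlap ACTA2 on the other strand, on the y axes (scales differ) against the 6 groups. Points are libraries (blue wild type, orange KO), and black marks are the group mean ± SD (n = 3). All 3 transcripts are highest in the 6 olaparib libraries, where ACTA2-201 reaches 71.6 to 79.2 FPKM, while FAS stays between 7.81 and 12.1 FPKM in all groups.

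TPM1, which encodes the tropomyosin most abundant in this set, was the gene whose responses to the treatments were large in opposite directions. Untreated wild-type libraries were at 394, 371 and 387 FPKM, olaparib libraries at 523, 537 and 521, and siPARP1 libraries at 172, 195 and 176. In KO cells the values were 488, 493 and 446 untreated, 624, 612 and 632 with olaparib, and 232, 252 and 231 with siPARP1. None of the 6 groups overlapped its neighbour in the order of means, which ran from KO olaparib (623 ± 10.1 FPKM) through wild-type olaparib, KO untreated, wild-type untreated and KO siPARP1 to wild-type siPARP1 (181 ± 12.1). Olaparib raised TPM1 by 0.46 log2 units in wild-type and 0.39 in KO cells (limma adjusted p = 8.97e-06 and 3.81e-05), and siPARP1 lowered it (−1.08 and −0.99, adjusted p = 8.2e-10 and 1.56e-09), to 47.1% and 50.1% of the untreated mean. KO cells had more TPM1 than wild-type cells in all 3 conditions, by 0.31, 0.24 and 0.40 log2 units untreated, with olaparib and with siPARP1. Its neighbours were also higher in KO cells: the median change of the 68 tested genes in the 10 Mb bin around TPM1 on chr15 was 0.15, 0.11 and 0.23. With the bin medians removed the 3 differences were 0.16, 0.13 and 0.17, and none passed (adjusted p = 0.0624, 0.185 and 0.0522). The olaparib difference also missed the threshold on the sum of listed transcripts (0.24, adjusted p = 0.0768).

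TPM2, the other tropomyosin gene of the set, rose in both treatments and had a much narrower range. Wild-type libraries were at 124, 114 and 112 FPKM untreated, 142, 149 and 144 with olaparib, and 128, 132 and 133 with siPARP1. KO libraries were at 128, 140.4 and 134 untreated, 162, 159.9 and 159 with olaparib, and 162, 178 and 161 with siPARP1. In both genotypes the treated libraries lay above the untreated ones without overlap. The rise with olaparib was 0.31 log2 units in wild-type and 0.26 in KO cells, and with siPARP1 0.17 and 0.31 (limma adjusted p = 0.0116 and 9.72e-05). The 0.17 in wild-type siPARP1 cells did not pass after rescaling to TPM (0.15, adjusted p = 0.0531), with median-of-ratios scaling (0.08, adjusted p = 0.237) or without wild-type untreated replicate 3 (0.14, adjusted p = 0.0558). TPM2 was higher in KO than in wild-type cells untreated (0.20, adjusted p = 0.0113) and with siPARP1 (0.34, adjusted p = 1.9e-04), and the olaparib difference of 0.14 missed the threshold (adjusted p = 0.0798) but passed with median-of-ratios scaling (0.17, adjusted p = 0.0491). The untreated call was lost without wild-type untreated replicate 3 (adjusted p = 0.0554) or KO untreated replicate 2 (adjusted p = 0.0536), or with only those 2 groups fitted (adjusted p = 0.0837). Under siPARP1, then, TPM1 fell and TPM2 rose in each genotype.

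CALD1 encodes caldesmon, which holds back actomyosin. Wild-type libraries were at 20.2, 18.3 and 19.2 FPKM untreated, 12.5, 9.08 and 7.99 with olaparib, and 25.4, 22.6 and 26.2 with siPARP1. KO libraries were at 32.0, 31.8 and 16.7 FPKM untreated, 27.2, 18.2 and 26.4 with olaparib, and 49.9, 48.4 and 48.7 with siPARP1. The wild-type olaparib libraries were the lowest and the KO siPARP1 libraries the highest, each apart from all others, while untreated and olaparib KO libraries were uneven, with 1 low library each. CALD1 fell by 0.92 ± 0.21 log2 units with olaparib in wild-type cells (limma adjusted p = 0.00279), whereas the −0.12 in KO cells did not pass (adjusted p = 0.664), and the difference between these responses, 0.79 ± 0.30, did not pass either (adjusted p = 0.202). siPARP1 raised CALD1 by 0.90 in KO cells (adjusted p = 0.0024), and the 0.34 in wild-type cells did not pass (adjusted p = 0.195; 0.0111 when only those 2 groups were fitted). KO cells had more CALD1 than wild-type cells with olaparib (1.20 ± 0.21, adjusted p = 0.00161, rank 26 among all rises of that comparison) and with siPARP1 (0.96, adjusted p = 0.00471). The untreated difference of 0.41 missed the threshold (adjusted p = 0.212) and was 0.70 (adjusted p = 0.0101) without KO untreated replicate 3. CALD1-202 carried 66.8% to 90.6% of the listed CALD1 signal and showed the same low libraries, at 11.2 FPKM in KO untreated replicate 3 and 14.1 in KO olaparib replicate 2.

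The calponins are actin-binding inhibitors of the myosin motor, CNN1 being the smooth muscle form and CNN2 and CNN3 the forms of non-muscle cells. CNN1 was at 0.0791 to 0.225 FPKM in the 6 untreated libraries and at 0 to 0.0684 in the 12 treated ones, with 6 libraries listed at 0. Every treated library was below every untreated one, but no library reached 1 FPKM and CNN1 was not tested. CNN2 stood at 27.9, 39.3 and 35.7 FPKM in untreated wild-type cells, 38.5, 42.7 and 37.2 with olaparib, and 23.3, 25.6 and 23.2 with siPARP1. The KO values were 40.9, 44.6 and 38.7 untreated, 53.3, 57.8 and 49.4 with olaparib, and 31.8, 27.6 and 35.9 with siPARP1. siPARP1 libraries lay below the untreated ones of their genotype without overlap, with changes of −0.48 log2 units in wild-type and −0.38 in KO cells (limma adjusted p = 0.00296 and 0.0133). Without KO untreated replicate 2 or KO siPARP1 replicate 2 the KO fall missed the threshold (adjusted p = 0.0551 and 0.0691). Olaparib raised CNN2 by 0.36 in KO cells (adjusted p = 0.0192; 0.0707 without KO untreated replicate 3 and 0.0755 without KO olaparib replicate 2), and the 0.21 in wild-type cells did not pass.

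CNN2 was also higher in KO than in wild-type cells with olaparib (0.43, limma adjusted p = 0.025) and with siPARP1 (0.38, adjusted p = 0.0277). Both calls depended on the processing and the libraries. With no filter on low values neither passed (adjusted p = 0.055 and 0.0617), and with only the compared groups fitted the siPARP1 call was lost (adjusted p = 0.0624). The olaparib call was lost without wild-type olaparib replicate 1 or 3 or KO olaparib replicate 1 or 2 (adjusted p up to 0.0965), and the siPARP1 call without wild-type siPARP1 replicate 1 or 3 or KO siPARP1 replicate 1 or 3 (adjusted p up to 0.118). The untreated difference of 0.28 did not pass (adjusted p = 0.114), but passed without wild-type untreated replicate 2 (0.38, adjusted p = 0.0445). The 204 tested genes of its bin on chr19 had medians of 0.09 and 0.21, and with these removed the differences were 0.34 (adjusted p = 0.102) and 0.18 (adjusted p = 0.37). CNN3 was at 166 to 169.9 FPKM in untreated, 183 to 191 in olaparib and 114 to 119 in siPARP1 wild-type libraries, and at 175 to 181, 208 to 212 and 117 to 125 in KO libraries. The 3 treatment levels did not overlap in either genotype. CNN3 rose with olaparib by 0.15 and 0.24 log2 units and fell with siPARP1 (−0.53 and −0.57) in wild-type and KO cells (adjusted p = 1.72e-08 and 6.11e-09 for the falls). Of its 3 comparisons between genotypes only that with olaparib passed (0.17 higher in KO cells, adjusted p = 0.00576; the untreated one passed with TPM rescaling, 0.13 and adjusted p = 0.0418), and the interaction of olaparib with genotype did not (adjusted p = 0.446).

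TAGLN encodes transgelin, a marker of the smooth muscle and myofibroblast state, and was the gene of the set with the largest response to siPARP1. It was low in untreated cells, at 1.45, 1.67 and 1.79 FPKM in wild-type and 2.17, 2.20 and 2.49 in KO libraries. With siPARP1 it reached 6.11, 6.62 and 5.67 FPKM in wild-type and 19.9, 18.9 and 17.1 in KO libraries, so the 2 siPARP1 groups stood apart from each other and from all other libraries. The rise was 1.44 ± 0.11 log2 units in wild-type cells (limma adjusted p = 5.06e-08) and 2.58 ± 0.11 in KO cells (adjusted p = 8.02e-11, rank 7 among all rises), which corresponds to 3.75 and 8.13 times the untreated mean FPKM. The response was larger in KO cells by 1.14 ± 0.15 log2 units, and this difference passed the test (adjusted p = 0.00043). TAGLN was the only member for which genotype and a treatment interacted, 1 of 9 tested, against 5.26% of all tested genes for siPARP1, and for olaparib 0 of 9 against 3.06%. The interaction also passed under every alternative run for it, each library left out in turn included.

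With olaparib TAGLN was at 2.35, 2.62 and 1.58 FPKM in wild-type and 2.42, 2.66 and 2.83 in KO libraries, which overlapped the untreated ones in each genotype, and neither change passed (0.26, limma adjusted p = 0.0634; 0.15, adjusted p = 0.29). Without wild-type olaparib replicate 3, the low library, the wild-type change was 0.40 and passed (adjusted p = 0.00217). KO cells had 1.46 log2 units more TAGLN than wild-type cells with siPARP1 (adjusted p = 2.81e-07, rank 21). The untreated difference of 0.32 was at the edge (adjusted p = 0.0487), although the 3 KO libraries lay above the 3 wild-type ones: without any 1 of the 6 libraries the adjusted p was 0.0621 to 0.159. That call was also lost with no filter (adjusted p = 0.109), on the sum of listed transcripts (0.0528), with only the compared groups fitted (0.0547) and with the replicate block (0.0589). The transcript TAGLN-202 was at 1.08 to 1.39 FPKM in untreated and 4.92 to 5.71 in siPARP1 wild-type libraries, and at 1.43 to 1.79 and 15.2 to 17.9 in KO libraries. Its interaction also passed (1.24, adjusted p = 0.00425, against 0.420% of all tested transcripts called), though not at a pseudocount of 0.1. TAGLN (chr11, 117199321 to 117204782, plus strand) shares 446 bases with PCSK7 on the other strand, which was at 5.76 to 10.6 FPKM over the 18 libraries.

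MYL9 encodes a regulatory light chain of myosin found in smooth muscle and in stress fibres. Untreated wild-type libraries were at 31.2, 46.0 and 43.5 FPKM and untreated KO libraries at 58.5, 61.3 and 56.8. With olaparib the values were 39.3, 40.9 and 39.2 in wild-type and 49.9, 48.7 and 45.5 in KO cells, and with siPARP1 47.0, 51.3 and 39.7 against 85.3, 82.2 and 77.9. In each condition the KO libraries lay above the wild-type ones without overlap. The difference was 0.56 ± 0.12 log2 units untreated (limma adjusted p = 0.0032; 0.0593 when only those 2 groups were fitted) and 0.82 ± 0.12 with siPARP1 (adjusted p = 1.4e-04), and the 0.26 with olaparib missed the threshold (adjusted p = 0.171; 0.0324 when only those 2 groups were fitted). Within a genotype, MYL9 rose with siPARP1 in KO cells (0.47, adjusted p = 0.00324), while the 0.20 in wild-type cells did not pass (adjusted p = 0.164; 0.30 and adjusted p = 0.0474 without wild-type untreated replicate 2). The change with olaparib in KO cells, −0.29, was just short of the threshold (adjusted p = 0.0542) and passed with median-of-ratios scaling (adjusted p = 0.0288), with only those groups fitted (adjusted p = 0.00865) and with the replicate number as a block (adjusted p = 0.0493). The transcript MYL9-202 was at 1.51 and 1.57 FPKM in wild-type untreated replicate 1 and wild-type siPARP1 replicate 3, against 14.8 to 20.7 in the other 7 wild-type libraries. MYL9-201 was steadier and was higher in KO cells untreated (0.38, adjusted p = 0.0265) and with siPARP1 (0.62, adjusted p = 8.09e-04).

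ACTN1, the alpha-actinin of stress fibres and focal adhesions, responded to siPARP1 and passed no other test against untreated cells or between genotypes. It was at 147, 183 and 164 FPKM in untreated wild-type libraries, 168, 144 and 167 with olaparib, and 110.4, 116 and 109 with siPARP1. KO libraries were at 185, 174 and 177 FPKM untreated, 182, 196 and 161 with olaparib, and 114, 123 and 109.5 with siPARP1. All 6 siPARP1 libraries were below all 12 others. The change was −0.55 ± 0.09 log2 units in wild-type and −0.63 ± 0.09 in KO cells (limma adjusted p = 9.97e-05 and 2.76e-05), to 67.7% and 64.6% of the untreated mean.

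**Figure D2:**
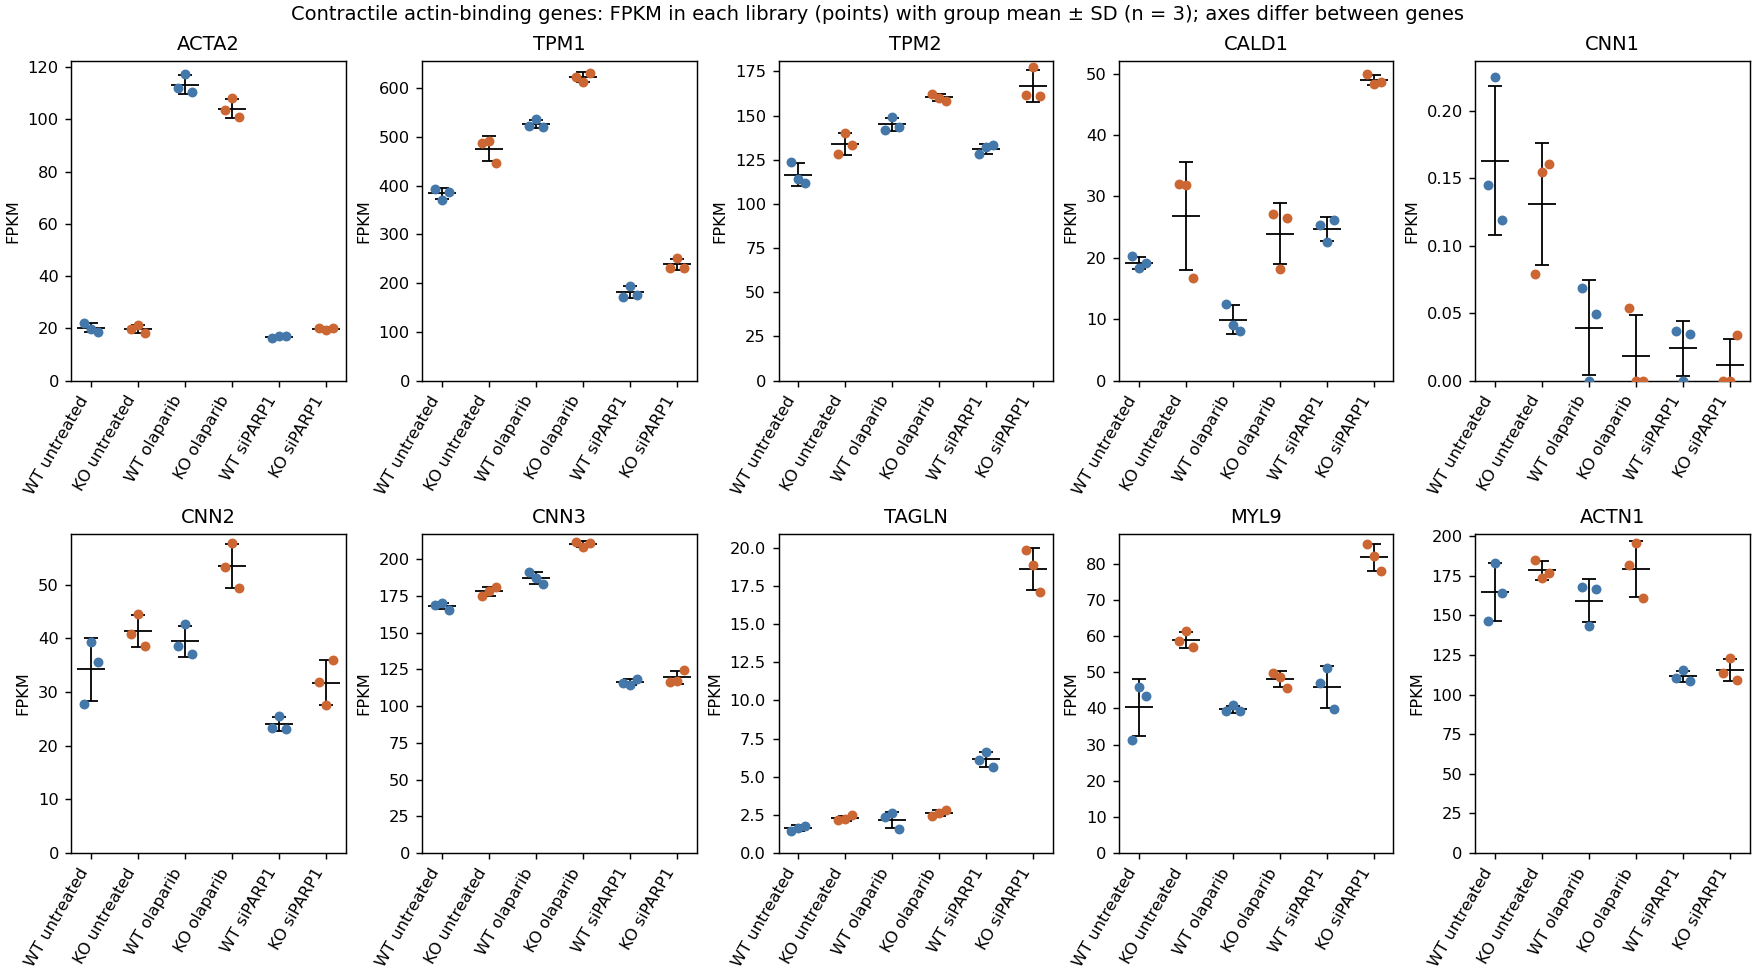
FPKM (y axes, scales differ between genes) of the 10 genes in each of the 18 libraries (points, blue wild type, orange KO) by group, with the group mean ± SD (n = 3) in black. ACTA2 is high in the 6 olaparib libraries (101 to 117 FPKM), TAGLN in the 3 KO siPARP1 libraries (17.1 to 19.9 FPKM), and TPM1, CNN3 and ACTN1 are lowest in the siPARP1 libraries. CNN1 is below 1 FPKM in all libraries.

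Counted over the set, olaparib raised 4 of the 9 tested genes (ACTA2, TPM1, TPM2 and CNN3) and lowered 1 (CALD1) in wild-type cells, where 45.4% of all 15764 tested genes were called (24.9% higher, 20.4% lower). In KO cells it raised 5 (ACTA2, TPM1, TPM2, CNN2 and CNN3) and lowered 0, with 47.2% of all tested genes called (25.2% higher, 22.0% lower). siPARP1 raised 2 (TAGLN and TPM2) and lowered 5 (TPM1, CNN2, CNN3, ACTA2 and ACTN1) in wild-type cells, with 51.7% called (29.5% higher, 22.3% lower). It raised 4 (TAGLN, CALD1, TPM2 and MYL9) and lowered 4 (TPM1, CNN2, CNN3 and ACTN1) in KO cells, with 54.7% called (31.9% higher, 22.8% lower). The median change of the 9 genes was 0.21 and 0.24 log2 units with olaparib and −0.25 and 0.01 with siPARP1, in wild-type and KO cells, against medians of all tested genes of 0.03, 0.03, 0.07 and 0.07. The treatments share their untreated controls. Olaparib and siPARP1 cells of 1 genotype, compared directly, differed at 8 of the 9 genes in wild-type cells, 6 higher with olaparib and 2 lower (51.7% of all tested genes called, 23.4% higher and 28.3% lower), and at 8 in KO cells, 5 higher and 3 lower (52.2% called, 22.4% higher and 29.7% lower). TPM1 (1.54 and 1.38), CNN2 (0.69 and 0.74), CNN3 (0.68 and 0.81), ACTN1 (0.51 and 0.63) and ACTA2 were higher with olaparib in both genotypes, and TAGLN (−1.18 and −2.43) and CALD1 (−1.26 and −1.03) were lower. MYL9 was lower with olaparib in KO cells (−0.76). TPM2 was higher with olaparib in wild-type cells alone (0.14, limma adjusted p = 0.0274), and that call was lost, with an adjusted p of 0.0515 to 0.0937, without wild-type olaparib replicate 2 or 3 or wild-type siPARP1 replicate 1 or 2.

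Between genotypes the called genes of the set were all higher in KO cells. They were 4 of 9 untreated (TAGLN, TPM1, TPM2 and MYL9), where 20.5% of all tested genes were called and 9.58% were called higher. They were 4 of 9 with olaparib (CALD1, TPM1, CNN2 and CNN3; 12.8% called, 5.68% higher) and 7 of 9 with siPARP1 (TAGLN, CALD1, TPM1, TPM2, MYL9, CNN2 and ACTA2; 23.1% called, 11.8% higher). ACTA2 entered the last group with 0.23 log2 units (limma adjusted p = 0.0139), its wild-type level being the lower one under siPARP1. The median differences of the 9 genes were 0.28, 0.21 and 0.38 log2 units, against −0.01, −0.01 and 0.00 for all tested genes. TPM1 was the only member called in all 3 conditions. With bin medians removed, the calls lost were those of TPM1 in each condition, of CNN2 with olaparib and siPARP1, and of TAGLN untreated (adjusted p = 0.0586).

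**Figure D3:**
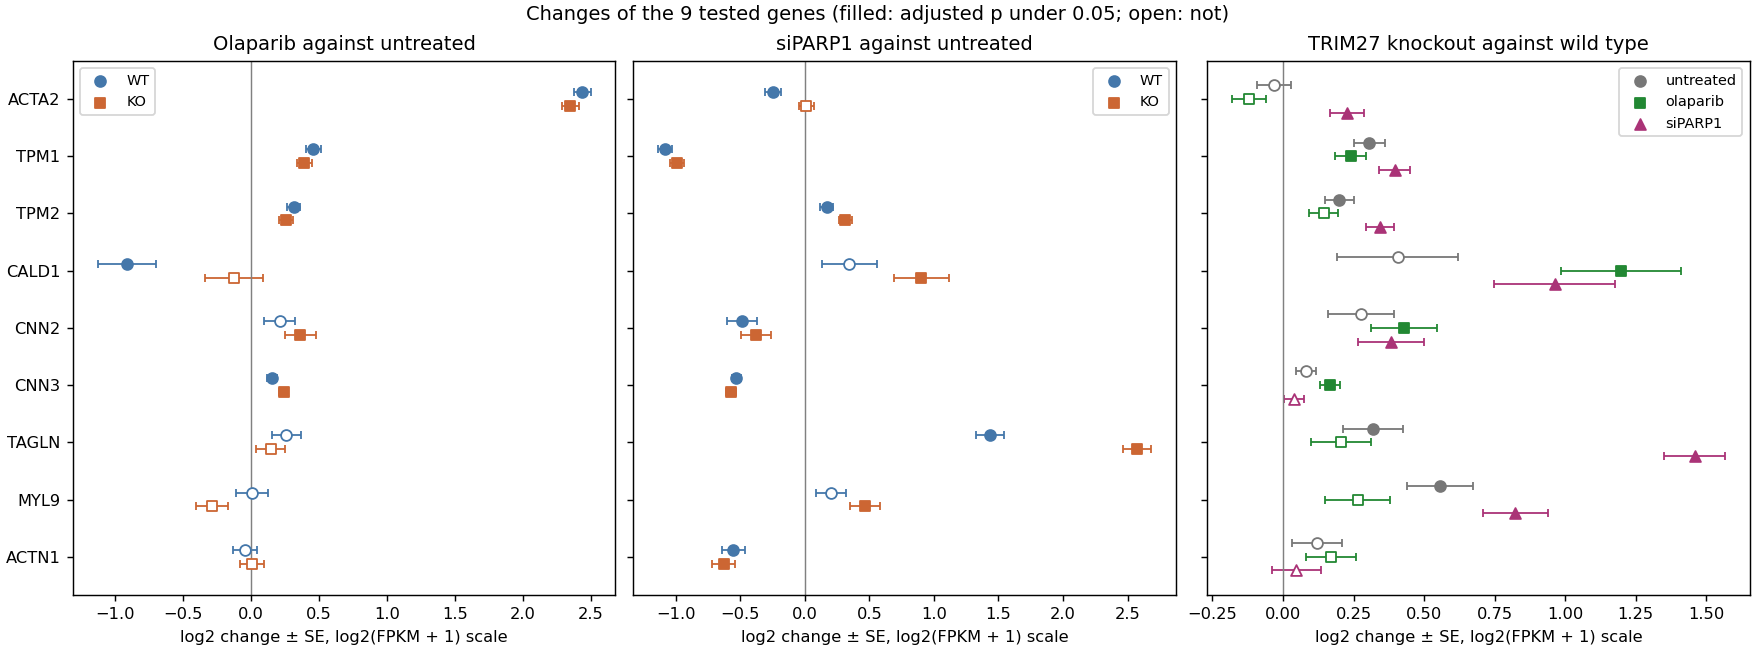
Log2 change on the log2(FPKM + 1) scale (x axis, ± SE from the limma fit) of the 9 tested genes (y axis) for olaparib against untreated, siPARP1 against untreated and KO against wild type. Colours and shapes give the genotype in the first and second panels and the condition in the third, and filled symbols have an adjusted p under 0.05. ACTA2 lies at 2.44 and 2.35 with olaparib, TAGLN at 1.44 and 2.58 with siPARP1, and all filled symbols of the third panel lie above 0.

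The transcript table listed 133 transcripts of the 10 genes, of which 60 had a mean of at least 1 FPKM. For TAGLN, CALD1, MYL9 and ACTA2 the main transcripts followed their gene. For the others the split between transcripts moved between libraries of 1 group more than their sum did: TPM1-234 was at 0 to 246 FPKM, CNN3-201 held 15.6% to 98.6% of the listed CNN3 signal, and ACTN1-205 held 0.576% to 76.4% of the listed ACTN1 signal. The listed ACTN1 transcripts summed to 32.5% to 93.3% of the gene value, and those of TPM1 to 89.9% to 97.8%. Isoform shifts of these genes were therefore not read from the table. Of the 60 transcripts, all of which were tested, the called ones numbered 17 for siPARP1 in KO cells, 5 for KO against wild type with siPARP1, 2 untreated and 1 with olaparib, against 18.9%, 2.88%, 2.50% and 1.30% of all tested transcripts.

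The machinery around the set was described with lists of other genes. SRF itself was at 9.71 ± 0.0812 FPKM in untreated and 12.5 ± 0.336 in siPARP1 wild-type cells, and rose with siPARP1 by 0.34 log2 units in wild-type and 0.48 in KO cells and with olaparib by 0.22 in KO cells. MRTFA, an SRF coactivator held back by free actin, rose with siPARP1 (0.25) and olaparib (0.38) in KO cells, whereas MRTFB fell with siPARP1 (−0.43 and −0.50). MYOCD, the muscle coactivator, did not exceed 0.0314 FPKM. The ternary complex factors, which share SRF with the MRTFs, were ELK1, ELK3 and ELK4. ELK1 rose with siPARP1 by 0.20 and 0.17, and ELK4 fell with both treatments (−0.34 and −0.37 with olaparib, −0.39 and −0.42 with siPARP1). ELK3 fell with olaparib (−1.38 and −1.76) and siPARP1 (−1.49 and −1.77), but its libraries were uneven, at 75.0, 70.3 and 24.1 FPKM in untreated wild-type cells. Between genotypes SRF was higher in KO cells with olaparib (0.15), MRTFA was higher with siPARP1 (0.30), and ELK1 was lower untreated (−0.18) and with siPARP1 (−0.21). The interaction of olaparib with genotype passed for SRF alone (0.23, limma adjusted p = 0.0455), against 3.06% of all tested genes.

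Among 14 tested genes of non-muscle myosin and its regulation, siPARP1 raised 4 and lowered 7 in wild-type cells (51.7% of all tested genes called, 29.5% higher and 22.3% lower) and raised 3 and lowered 7 in KO cells (54.7%, 31.9% and 22.8%). MYLK, the kinase that phosphorylates the regulatory light chain, fell (−1.80 and −2.42 log2 units), from 46.2 to 47.3 FPKM in untreated to 10.3 to 14.9 in siPARP1 wild-type libraries, and the heavy chain gene MYH9 fell as well (−1.22 and −1.12). The light chain genes MYL6 (0.67 and 0.77) and MYL6B (0.50 and 0.49) rose, and MYL12A rose in KO cells (0.29). Another light chain gene, MYL12B, fell by 1.09 in KO cells, which was 0.30 more than its fall in wild-type cells. With olaparib 4 rose and 1 fell in wild-type cells, where 45.4% of all tested genes were called, and 6 rose and 1 fell in KO cells, where 47.2% were, led by RHOB, a small GTPase of actin control (1.54 and 1.41), and MYL12A (0.50 in each), with MYH9 (−0.18 and −0.55) the gene that fell. KO cells differed from wild-type cells at 7 genes untreated, 5 of them higher, with MYLK (0.67) and MYH9 (0.48) first, at 4 with olaparib, 3 of them higher, and at 4 with siPARP1, 3 of them higher, with RHOB (0.70) and MYH9 (0.58) first, against 20.5%, 12.8% and 23.1% of all tested genes called. The interaction of siPARP1 with genotype passed for RHOB (0.30) and, in the other direction, for the light chain gene MYL12B (−0.30), 2 of the 14 against 5.26% of all tested genes. That of olaparib with genotype passed for MYH9 alone (−0.37), which fell more in KO cells, against 3.06% of all tested genes.

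Of 19 other actin, actin-binding and focal adhesion genes, siPARP1 raised 4 and lowered 7 in wild-type cells, a called share near the 51.7% of all tested genes, and raised 5 and lowered 9 in KO cells (54.7% of all tested genes called). CSRP1 (0.76 and 1.53) and PDLIM7 (0.63 and 1.39), LIM-domain proteins of the actin cytoskeleton, rose most, and the LIM-domain genes FHL1 (−1.62 and −1.20) and FHL2 (−0.86 and −0.97) fell most. Olaparib raised 4 and lowered 6 of them in wild-type cells, with FLNA (0.63) and CSRP1 (−1.06) at the ends, and raised 3 and lowered 7 in KO cells, with PXN (0.57) and TPM4 (−1.62) at the ends, called shares near the 45.4% and 47.2% of all tested genes. The TPM4 fall had an SE of 0.38, against 0.09 for the PXN rise. Its interaction of olaparib with genotype missed the threshold (−1.54, limma adjusted p = 0.155). The KO differences were 6 higher and 2 lower untreated, 4 and 1 with olaparib, and 9 and 0 with siPARP1, with PDLIM7 (1.07) the largest (20.5%, 12.8% and 23.1% of all tested genes called). The interaction of siPARP1 with genotype passed for 4 of the 19, all positive, against 5.26% of all tested genes. CSRP1 (0.77) and PDLIM7 (0.76) rose in both genotypes and more in KO cells, as TAGLN did, whereas FHL1 (0.42), named here after its values were seen, fell in both and less in KO cells. ZYX (0.38), also named after its values were seen, rose by 0.98 in KO cells, which was 0.38 more than its rise in wild-type cells. The interaction of olaparib with genotype passed among the 19 for TPM3 alone (0.51), against 3.06% of all tested genes.

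**Figure D4:**
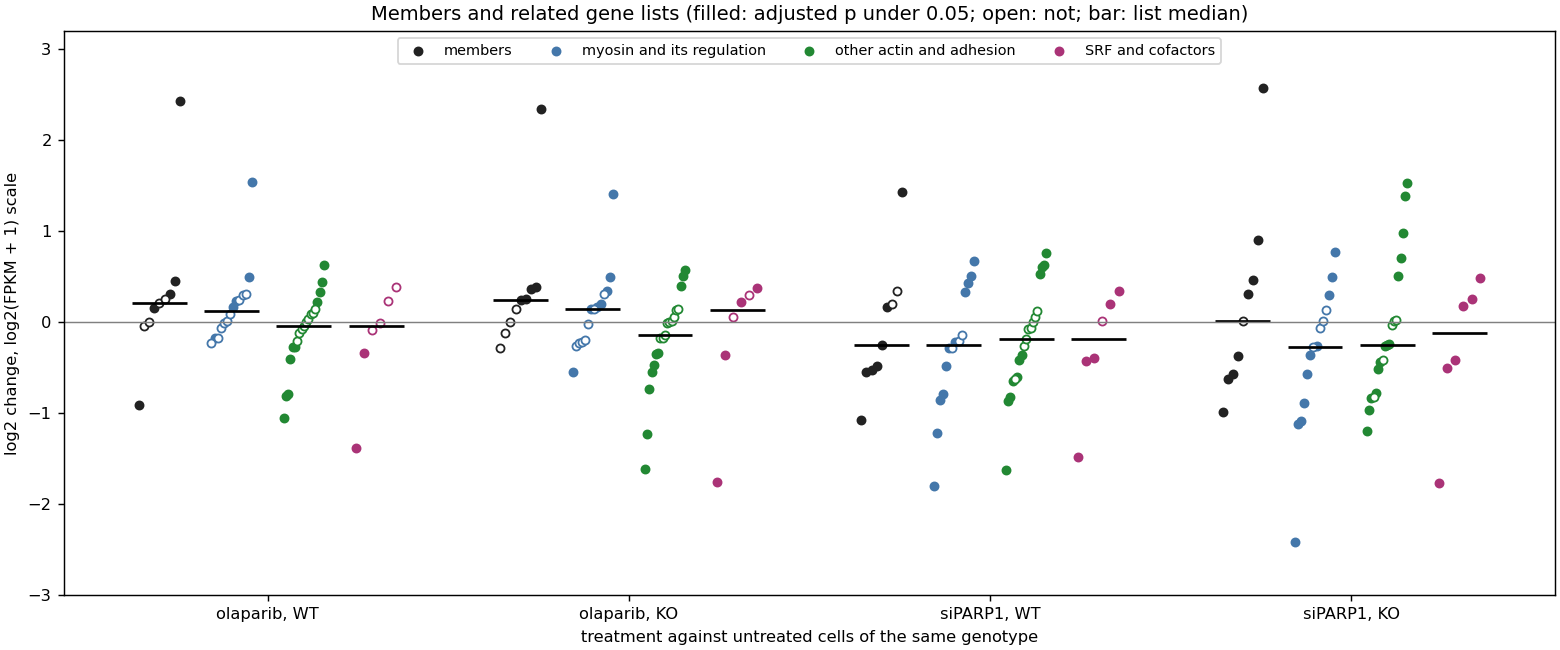
Log2 changes on the log2(FPKM + 1) scale (y axis) of the 9 tested members and of 3 related gene lists for each treatment and genotype (x axis). Each point is a gene, filled where the adjusted p was under 0.05, and the bar is the list median. Members spread from −1.08 to 1.44 with siPARP1 in wild-type cells and from −0.99 to 2.58 in KO cells, and in siPARP1 KO cells each of the 3 lists holds called genes on both sides of 0.

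Pairs within the set were described by Pearson's r of log2(FPKM + 1) over the 18 libraries, which fall into the same 6 groups, so r mostly reflects how group levels line up. TPM1, CNN3 and ACTN1 ran together (TPM1 with CNN3 0.98, CNN3 with ACTN1 0.90), TAGLN and CALD1 each had 0.77 with MYL9, and TAGLN ran opposite to CNN3 (−0.80) and ACTN1 (−0.79). Among tested genes whose mean was 5 FPKM or more, the pattern of ACTA2 was most like those of BTG2 (0.995) and H2BC19P (0.993), and that of TAGLN most like PDLIM7 (0.98) and SFI1 (0.98). BTG2 went from 8.76 FPKM on average in untreated to 28.0 in olaparib wild-type cells, and stood at 8.51 with siPARP1. TPM1 was most like ROR1 and DOP1B (0.99 each), CNN3 like SUMO3 and CAVIN2 (0.99 each), ACTN1 like TSPAN5 (0.96) and CAV1 (0.95), and CNN2 like KAT2B and LSM3 (0.95 each). For CALD1 they were FGF5 and MORF4L1P1 (0.91 each), for TPM2 EID1 (0.95) and MTMR14 (0.93), and for MYL9 QARS1 (0.94) and TADA3 (0.91).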

How the data were processed

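PolyA RNA was sequenced from 18 libraries, 3 in each of 6 groups set by the labels. The authors deposited gene and transcript tables in FPKM. GRCh38, HISAT2 2.2.1, StringTie 2.2.1, featureCounts 2.0.3, DESeq2 1.38.3 and fastp 0.23.2 are listed, with no role, per the submitters' processing notes. The annotation release, strand setting and depth are not given in the sources used here. A gene was tested if 3 or more libraries held 1 FPKM or more of it (15764 of 62830) on log2(FPKM + 1) in a single limma 3.58.1 fit (R 4.3.3) of 6 groups with trended variance and 12 residual degrees of freedom, in 11 contrasts with Benjamini-Hochberg adjustment. Positions and transcript names came from GENCODE release 29. The fit was tested on simulated data. Named were all 10 members, TRIM27, PARP1, every gene of the SRF list, the called genes of other lists with the largest rises and falls (up to 2 each way), the overlapping genes FAS, STAMBPL1, ACTA2-AS1 and PCSK7, and the 2 genes most alike to each member. ZYX was added after its values were seen. Alternatives were a pseudocount of 0.1, no filter, TPM, median-of-ratios and non-mitochondrial scaling, transcript sums, a replicate block, fits of the compared groups only, removal of 10 Mb bin medians and omission of each library. The members and lists were chosen with earlier results of these data known.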

Additional observations from a re-analysis of the deposited data

Results flagged for a closer look

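The response of TAGLN to siPARP1 differed between the genotypes by a test of the difference itself: the rise in KO cells exceeded that in wild-type cells by 1.14 ± 0.15 log2 units (interaction term, limma adjusted p = 0.00043, rank 75 among positive interactions). All 3 KO siPARP1 libraries were above all 3 wild-type siPARP1 libraries.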

How the results depend on the processing

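Of 1521 recomputed values for the 99 member results, 1467 stayed on their side of the threshold, 43 lost a call, 11 gained one and 0 changed direction after a call. Counts that moved by over 1.5 times were these. For KO against wild type untreated, members called went from 4 to 1 with only the compared groups fitted (TPM1 left), to 2 with 10 Mb bin medians removed, and to 2 to 4 without 1 library. With olaparib they went from 4 to 2 with bin medians removed. Called transcripts of the members went, for KO against wild type untreated, from 2 to 1 with no filter and 1 to 6 without 1 library; with olaparib, from 1 to 0 with no filter, 0 with the replicate block and 0 to 1 without 1 library; with siPARP1, from 5 to 3 with no filter and 3 to 5 without 1 library; for siPARP1 in KO cells, from 17 to 11 to 15 without 1 library (11 without KO untreated replicate 3); and for the interaction of siPARP1, from 1 to 0 at a pseudocount of 0.1. Over all tested genes, calls between genotypes went from 3227 to 2144 (untreated) and 3634 to 2213 (siPARP1), and for the siPARP1 interaction from 829 to 500, with only the compared groups fitted; from 2023 to 1254 (olaparib) with bin medians removed; and for the olaparib interaction from 482 to 313 without wild-type untreated replicate 1. The share of calls that were higher in KO cells moved from 46.8% to 58.9% (untreated), 44.2% to 58.2% (olaparib) and 51.3% to 61.3% (siPARP1) with TPM rescaling. For siPARP1 against untreated in KO cells, the share of calls that were higher with siPARP1 moved from 58.4% to 48.2% with median-of-ratios scaling. For the siPARP1 interaction, the share of calls that were positive moved from 52.1% to 64.0% without mitochondrial genes. Same-numbered libraries did not deviate together (45 pairs, correlations of −0.0707 to 0.0871). The labels do not say whether they were handled as pairs, and these correlations cannot tell. With the replicate block the untreated TAGLN call was lost (adjusted p = 0.0589) and the MYL9 change with olaparib in KO cells was gained (0.0493), and no other member call changed. Apart from that the cause of these shifts was not tested. FPKM gives no depth, which limits what can be said of low genes such as CNN1.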
